A study of Homo sapiens with 4 samples.

Results

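Genes of cholesterol and fatty acid synthesis were followed in HLE, a cell line of human hepatocellular carcinoma, in populations that stably express CYR61 (current symbol CCN1), a secreted protein of the extracellular matrix, or carry the empty vector. The 44 genes were listed by role, as enzymes of sterol synthesis, sensors of sterol level, sterol and lipoprotein carriers, and enzymes of fatty acid synthesis, elongation, desaturation and activation. A gene was kept when its mean over the libraries reached 1 CPM (counts scaled to a common library size), and all 44 were kept, of 20286 genes in each file and 12698 that could be tested. The lowest means inside that limit were 2.84 CPM for TM7SF2 and 3.20 CPM for ELOVL6, and no listed gene lay outside it. RNA came from 2 cultures of the CYR61 stable population and 2 cultures of the stable population carrying the empty vector, all untreated and grown in serum-containing 1640 medium. The study describes each line as a total population, so that a p-value here reflects how far cultures of 1 population vary. Serum supplies cholesterol and fatty acids in both groups.

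Cells make cholesterol from acetyl-CoA through mevalonate, isoprenoid pyrophosphates, squalene and a series of ring modifications. Fatty acids are built from the same acetyl-CoA, which ACLY draws from citrate and ACSS2 from acetate. Transcription of both routes is governed by the SREBP proteins, encoded by SREBF1 and SREBF2. SCAP carries them out of the endoplasmic reticulum when sterols are low, and the INSIG proteins hold them back when sterols are plentiful. SREBP-1 is known mainly for fatty acid genes and SREBP-2 for cholesterol genes, with overlap. Both act at sterol regulatory elements, often beside a CCAAT box, which binds the factor NF-Y.

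The RefSeq promoter table (GRCh38.p14) held 40 of the 44 genes, and stretches before the first listed RefSeq start are shown for SREBF2 and for the 4 called members, out of 5, that held a CCAAT box. The other called member, VLDLR, held neither CCAAT nor the sterol element core and is not shown. Promoters were searched over the 250 bases before that start, on both strands, for CCAAT and for the sterol element core TCACNCCAC, which do not overlap each other in these stretches. Capitals mark the matches, so ATTGG is CCAAT on the other strand. The first pair lies upstream of genes of sterol synthesis, SREBF2 encodes SREBP-2, and the last pair belongs to acetate use and desaturation. The stretches lie at chr5:43313488-43313587 (minus strand), chr11:65111778-65111822, chr22:41832952-41833023, chr20:34874846-34874890 and chr10:100346984-100347071 (plus strand), in the order shown. RefSeq and GENCODE starts differ, so that the ACSS2 stretch and part of the HMGCS1 stretch lie within the GENCODE gene spans given with the results.
HMGCS1: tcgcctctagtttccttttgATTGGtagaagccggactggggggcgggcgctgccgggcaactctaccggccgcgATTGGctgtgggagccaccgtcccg
TM7SF2: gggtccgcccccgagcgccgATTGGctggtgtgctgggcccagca
SREBF2: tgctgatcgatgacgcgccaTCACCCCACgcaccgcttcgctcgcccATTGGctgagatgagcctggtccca
ACSS2: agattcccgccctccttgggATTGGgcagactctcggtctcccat
SCD: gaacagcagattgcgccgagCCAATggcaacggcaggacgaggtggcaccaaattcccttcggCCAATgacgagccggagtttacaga
CCAAT occurred in 23 of the 40 members' promoters (57.5%), against 33% of 27305 promoters of all genes and 35.4% of 10183 promoters of tested genes. By arm it stood in 12 of 15 sterol synthesis and 8 of 16 fatty acid promoters. The core TCACNCCAC was found in 1 of the 40, SREBF2, against 0.875% of all promoters. Of the other motifs searched, GGGCGG stood in 36 of the 40 (68% of tested genes' promoters), CACGTG in 5 (8.98%) and TGATGNAA, the core of the element that ATF4 binds, in 0 (1.27%). A match describes letters and does not show a bound site. A missing match speaks only of these exact letters in these windows. Other forms of the sterol regulatory element were not searched, so their absence is not shown for any member.

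Depth ranged from 16186988 to 21588822 estimated counts per library. CYR61 itself was at 8091 and 8620 CPM in the CYR61 libraries and at 221 and 218 CPM in the vector libraries (log2 fold change 5.25, SE 0.13, edgeR adjusted p = 1.33e-08), which checks the labels, with transgene and native transcripts in 1 count. Of 12 hepatocyte markers, 6 were testable and 3, ALB among them, had 0 counts in each library. Their summed level was 51.1 and 46.7 CPM in CYR61 libraries and 40.2 and 39.1 CPM in vector libraries, with 2 of the 6 called higher and 1 lower. FGB (log2 fold change 1.85, edgeR adjusted p = 0.000436) and FGA (1.87, edgeR adjusted p = 0.00259), both fibrinogen chains, were higher in CYR61 cells, and the transcription factor gene CEBPA was lower (-1.17, edgeR adjusted p = 0.0039). Of 6 genes listed for liver cancer lines, none of 5 tested was called. KRT8 and KRT18 (1055 to 3243 CPM) and the mesenchymal VIM (1496 to 1958 CPM) were abundant, CDH1 (1.04 to 2.61 CPM) and EPCAM (0.319 to 1.36 CPM) were low, and KRT19 had 0 to 2 counts. Summed levels over the 4 libraries were 0.186 to 0.453 CPM for 5 adipocyte markers, 0.627 to 0.956 CPM for 5 immune markers, 1.81 to 2.51 CPM for 4 endothelial markers and 23.6 to 31.8 CPM for 6 fibroblast markers. COL1A1 made up most of the fibroblast sum, and DCN, at 3.675 and 2.26 CPM in CYR61 libraries and 0.637 and 0.544 CPM in vector libraries, was called higher (log2 fold change 2.34, edgeR adjusted p = 0.00746). The part of these markers in the results was not tested.

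In CYR61 cells HMGCS1 rose, and TM7SF2, VLDLR, ACSS2 and SCD fell. These 5 of 44 members (11.4%) passed an edgeR adjusted p below 0.05, hereafter called, against 6.39% of all tested genes. By direction, 1 member was higher, against 1.83% of tested genes, and 4 were lower (9.09%), against 4.56%. The median log2 fold change was -0.122 over the 44 genes and -0.006 over all tested genes. Both CYR61 libraries lay below both vector libraries for 19 members and above them for 5, while 27.7% and 23.9% of all tested genes did so. In bulk RNA, fewer cells expressing a gene and less of its RNA per cell cannot be told apart.

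**Figure D1:**
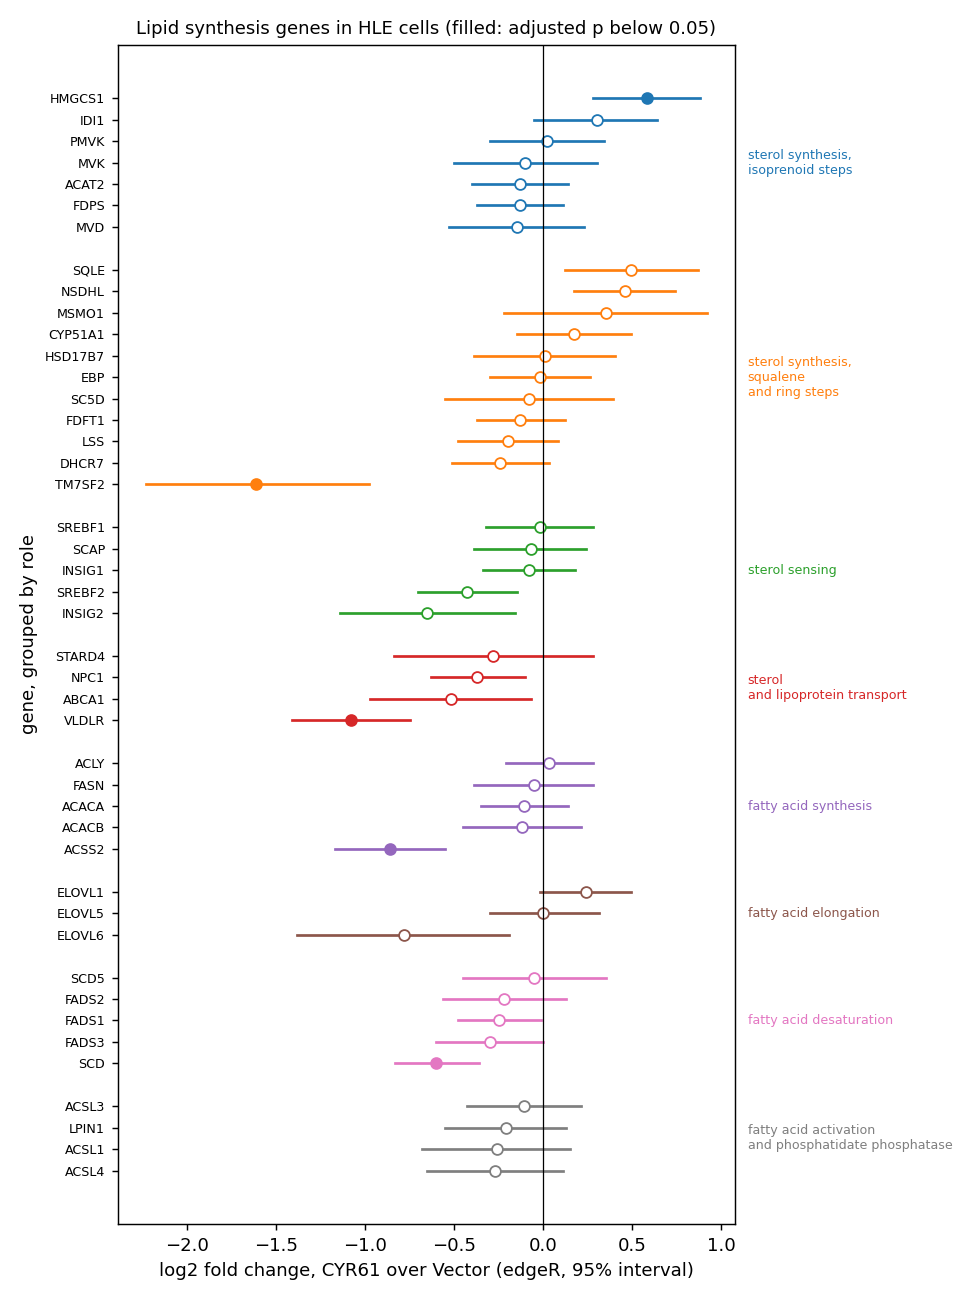
Log2 fold change of each of the 44 genes (x axis, CYR61 over Vector, with its 95% interval from edgeR), grouped by role down the page; filled points have an adjusted p below 0.05. Points lie within 0.6 of 0 on the log2 scale for most genes, with TM7SF2 at -1.61, VLDLR at -1.08, ELOVL6 at -0.78, ACSS2 at -0.86 and INSIG2 at -0.65 outside it.

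In the steps from acetyl-CoA to isoprenoids, 1 of 7 genes was called higher and 0 lower, against 1.83% and 4.56% of all tested genes. Here and below, 1 call in a role of a few genes is not read as a result about that role. HMGCS1 encodes the cytosolic synthase that makes the precursor of mevalonate (ENSG00000112972, hg38 chromosome 5, 43289395 to 43313512, minus strand). It had 142 and 116 CPM in CYR61 libraries, against 81.0 and 91.4 CPM in vector libraries. Both CYR61 libraries were above both vector libraries, by 1.5-fold in the fit (log2 fold change 0.58, SE 0.14, edgeR adjusted p = 0.0331). This call was lost without the CYR61 1 library (log2 fold change 0.43, edgeR adjusted p = 0.155), without Vector 1 (0.50, adjusted p = 0.188) and when scaled by library size alone (adjusted p = 0.0617). IDI1, the isomerase that interconverts the isoprenoid units, had 49.7 and 38.8 CPM in CYR61 libraries, against 34.1 and 38.0 CPM in vector libraries, which do not overlap by a narrow margin (log2 fold change 0.30, edgeR adjusted p = 0.286). The thiolase gene ACAT2, the kinase genes MVK and PMVK, the decarboxylase gene MVD and the farnesyl pyrophosphate synthase gene FDPS were not called, with log2 fold changes between -0.15 and 0.02. For FDPS, the most abundant of these 7 genes per kilobase of exon, the 95% interval ran from -0.37 to 0.11. ACAT2 shares 26.5% of its exon length with an opposite-strand model and MVK 4.72% with MMAB. The annotation holds 8 pseudogene models of FDPS, and the files have rows for none of them. Whether these models bear on the FDPS counts was not tested.

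Of 11 genes from squalene onward, 1 was called lower and 0 higher, against 4.56% and 1.83% of all tested genes. TM7SF2, one of the genes for sterol C14 reductases (ENSG00000149809, chromosome 11, 65111845 to 65116384, plus strand), had 1.3025 and 1.504 CPM in CYR61 libraries, against 4.51 and 4.03 CPM in vector libraries. The counts behind these were low, 28 and 24 in CYR61 libraries and 85 and 89 in vector libraries, and the groups were well apart. It was 3.05-fold lower in CYR61 cells (log2 fold change -1.61, SE 0.28, edgeR adjusted p = 0.00894). LBR, the other gene with this enzyme activity and chosen here after its values were seen, had 74.6 and 59.1 CPM in CYR61 libraries and 38.9 and 53.1 CPM in vector libraries (log2 fold change 0.54, edgeR adjusted p = 0.0965).

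SQLE, squalene epoxidase, an oxygen-using control step of the pathway, had 54.3 and 43.1 CPM in CYR61 libraries and 30.4 and 38.9 CPM in vector libraries. The groups did not overlap, and it was not called (log2 fold change 0.49, SE 0.17, edgeR adjusted p = 0.111). Leaving out 1 library, its log2 fold change ran from 0.33 (without Vector 1) to 0.69 (without Vector 2). It was called without a filter on low counts (edgeR adjusted p = 0.019) and not by DESeq2 (adjusted p = 0.0678). NSDHL, which helps remove the methyl groups at carbon 4 of the ring, was tight within groups. It had 48.8 and 47.6 CPM in CYR61 libraries, against 35.8 and 34.4 CPM in vector libraries (log2 fold change 0.46, SE 0.13, edgeR adjusted p = 0.0655). DESeq2 called NSDHL (adjusted p = 0.044), as did edgeR without a filter (adjusted p = 0.034). It was not called by limma-voom (adjusted p = 0.0647) or with RLE size factors (edgeR adjusted p = 0.0618). MSMO1, the methyl sterol oxidase of the same demethylation, had 24.6 and 14.6 CPM in CYR61 libraries and 12.5 and 18.4 CPM in vector libraries, and its sign followed 1 library. Without CYR61 1 its log2 fold change was -0.07, and without CYR61 2 it was 0.67 with an edgeR adjusted p of 0.0241. The other members here, FDFT1 (squalene synthase), LSS (lanosterol synthase), CYP51A1 (lanosterol demethylase), HSD17B7, EBP, SC5D and DHCR7 (the reductase that completes cholesterol), were not called and ranged from -0.24 for DHCR7 to 0.17 for CYP51A1 on the log2 scale. HSD17B7 and CYP51A1 have 2 and 3 pseudogene models without rows in the files. CYP51A1 also shares 79.4% of its exon length with a second gene model on its strand, which had 0 counts in each library.

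None of the 5 sensing genes was called, against 6.39% of all tested genes. All 5 had log2 fold changes below 0, where the median over all tested genes was -0.006. Those of SREBF1, SCAP and INSIG1 lay between -0.08 and -0.02, and SREBF1 and SCAP changed sign under some of the alternatives given below. SREBF2 (ENSG00000198911, chromosome 22, 41833079 to 41907308, plus strand) came closest to a call. It had 259 and 307 CPM in CYR61 libraries, against 399 and 361 CPM in vector libraries, with no overlap (log2 fold change -0.43, SE 0.12, edgeR adjusted p = 0.0689). Leaving out 1 library, its log2 fold change ran from -0.55 (without CYR61 2) to -0.30 (without CYR61 1). It was called without a filter on low counts (edgeR adjusted p = 0.0108) and not by DESeq2 (adjusted p = 0.0543). SREBF1 overlapped between groups, with 359 and 444 CPM in CYR61 libraries and 442 and 374 CPM in vector libraries (log2 fold change -0.02, 95% interval -0.32 to 0.28). SREBF1 partly shares exon sequence with RAI1 on the opposite strand, over 6.92% of its exon length, as NPC1 does with RMC1 over 5.98%. SCAP had 139 and 172 CPM in CYR61 libraries and 179 and 148 CPM in vector libraries (log2 fold change -0.07, edgeR adjusted p = 0.812).

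The INSIG genes were unlike in size of difference, which was not tested between them. INSIG1, itself a known SREBP target, was nearly level, at 73.9 and 72.3 CPM in CYR61 libraries and 76.2 and 78.7 CPM in vector libraries (log2 fold change -0.08, 95% interval -0.34 to 0.18). INSIG2, the other gene of the pair, had 8.98 and 5.83 CPM in CYR61 libraries and 11.7 CPM in each vector library (log2 fold change -0.65, SE 0.22, edgeR adjusted p = 0.107). Leaving out 1 library, its log2 fold change ran from -1 (without CYR61 1) to -0.38 (without CYR61 2). It was called without a filter (edgeR adjusted p = 0.0175) and not by DESeq2 (adjusted p = 0.15).

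Among the 4 carriers, VLDLR was called lower, where 4.56% of all tested genes were. The other 3 were not called, with log2 fold changes from -0.52 to -0.28. VLDLR encodes a receptor for triglyceride-rich lipoproteins (ENSG00000147852, chromosome 9, 2621834 to 2660053, plus strand) and is also known as a target of the stress factor ATF4. It had 16.9 and 15.7 CPM in CYR61 libraries, against 34.5 and 34.4 CPM in vector libraries. Replicates were nearly equal and the difference was 2.11-fold (log2 fold change -1.08, SE 0.15, edgeR adjusted p = 0.00259). NPC1, which exports cholesterol from lysosomes, had 94.3 and 107 CPM in CYR61 libraries and 130.5 and 129.8 CPM in vector libraries (log2 fold change -0.37, edgeR adjusted p = 0.0963). ABCA1, the cholesterol exporter, had 6.23 and 5.07 CPM in CYR61 libraries and 8.12 and 8.20 CPM in vector libraries (log2 fold change -0.52, edgeR adjusted p = 0.153). STARD4, a soluble sterol carrier, overlapped between groups (log2 fold change -0.28, edgeR adjusted p = 0.548).

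**Figure D2:**
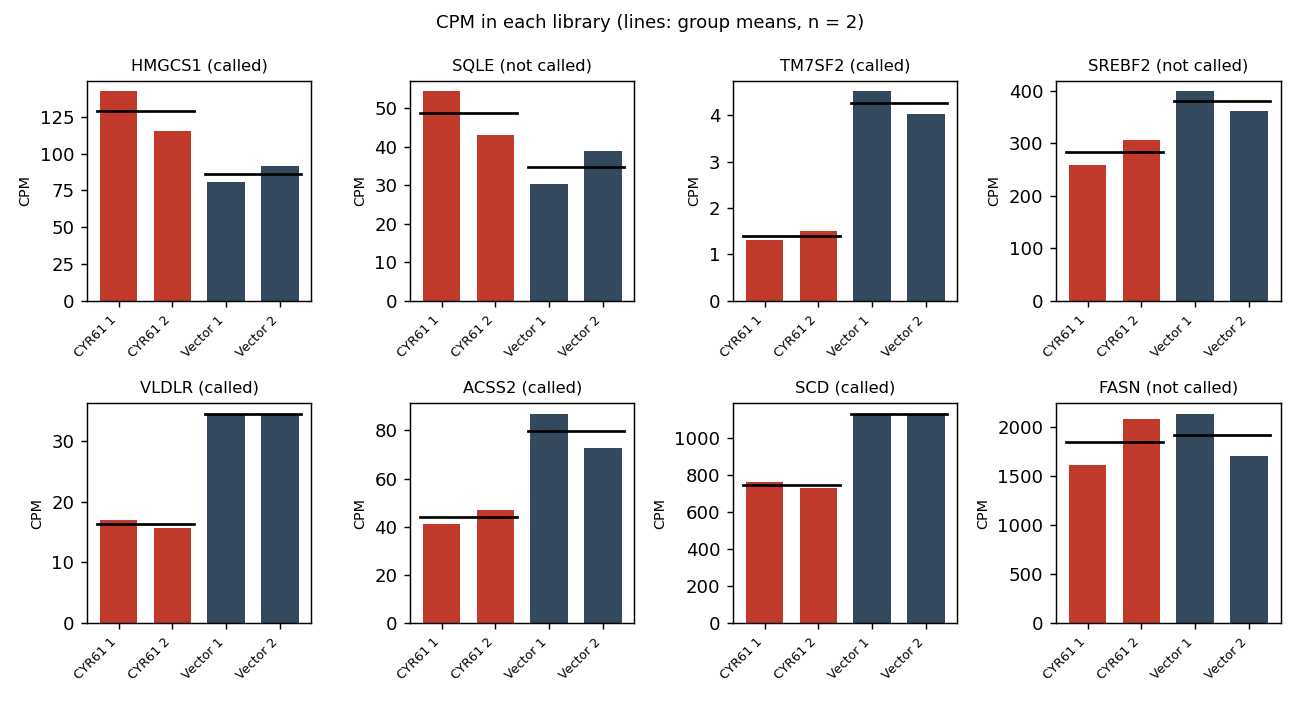
CPM (y axis, from 0) of 8 genes in each library, CYR61 libraries in red and vector libraries in blue, with lines at the group means. For VLDLR and SCD the bars of a group are nearly level, while for FASN the lowest bar is CYR61 1 at 1613 CPM and the highest is Vector 1 at 2135 CPM.

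Of 5 genes that supply and condense acetyl units into fatty acids, ACSS2 was called lower and none higher. Over all tested genes 4.56% were lower and 1.83% higher by the same rule. ACSS2, which makes acetyl-CoA from acetate (ENSG00000131069, chromosome 20, 34872146 to 34927962, plus strand), had 41.0 and 46.9 CPM in CYR61 libraries, against 86.8 and 72.6 CPM in vector libraries. The groups were apart by 1.81-fold (log2 fold change -0.86, SE 0.14, edgeR adjusted p = 0.0063). ACLY, which makes the same product from citrate, overlapped between groups, at 602 and 660 CPM in CYR61 libraries and 642 and 590 CPM in vector libraries (log2 fold change 0.03, 95% interval -0.21 to 0.28). FASN, the fatty acid synthase, had 1613 and 2084 CPM in CYR61 libraries and 2135 and 1705 CPM in vector libraries (log2 fold change -0.05, 95% interval -0.39 to 0.28). Each group of FASN spanned most of the other. The carboxylase genes ACACA (log2 fold change -0.11) and ACACB (-0.12) were not called.

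In desaturation, SCD was called lower, where 4.56% of all tested genes were, and the other 4 genes were not called. SCD, the stearoyl-CoA desaturase that makes monounsaturated fatty acids (ENSG00000099194, chromosome 10, 100347124 to 100364834, plus strand), had 766 and 730.3 CPM in CYR61 libraries, against 1133 and 1128 CPM in vector libraries. The replicates were close and the groups well apart, 1.51-fold (log2 fold change -0.60, SE 0.10, edgeR adjusted p = 0.00915). GENCODE holds 1 pseudogene model of SCD, with no row in the files, and 1 of FADS2 likewise. SCD5, its low-abundance relative, had 9.21 and 8.33 CPM in CYR61 libraries and 9.02 and 9.20 CPM in vector libraries (log2 fold change -0.05). FADS1, the delta-5 desaturase gene of polyunsaturated fatty acids, had 294 CPM in both CYR61 libraries and 346 and 351 CPM in vector libraries (log2 fold change -0.25, edgeR adjusted p = 0.197). FADS2 (log2 fold change -0.22) and FADS3 (-0.30) were also below 0. FADS1 and FADS2 share 490 bases of exon on opposite strands, and no source used here gives the strandedness of the counting.

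Among the elongases, none of 3 was called, against 6.39% of all tested genes. ELOVL6, which lengthens the palmitate that FASN makes, had 2.09 and 2.63 CPM in CYR61 libraries and 3.66 and 4.39 CPM in vector libraries, on 42 to 97 counts (log2 fold change -0.78, SE 0.27, edgeR adjusted p = 0.114). ELOVL1, for very long saturated chains, lay the other way, at 123.6 and 123.5 CPM in CYR61 libraries and 110.5 and 99.3 CPM in vector libraries (log2 fold change 0.24, edgeR adjusted p = 0.258). ELOVL5 had a log2 fold change of 0.00. The acyl-CoA synthetase genes ACSL1, ACSL3 and ACSL4 and the phosphatidate phosphatase gene LPIN1 were not called, with log2 fold changes between -0.27 and -0.11. ACSL4, which favours arachidonic acid, had the smallest p of these 4, with 62.8 and 47.6 CPM in CYR61 libraries and 57.8 and 75.4 CPM in vector libraries, overlapping (log2 fold change -0.27, edgeR adjusted p = 0.384).

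Set side by side, each arm held 2 called genes, where 6.39% of all tested genes were called. The sterol arm had 1 gene higher and 1 lower of 18 (11.1% called), and the fatty acid arm, with LPIN1 counted in it, 0 higher and 2 lower of 17 (11.8% called). The median log2 fold change was -0.047 in the sterol arm and -0.211 in the fatty acid arm, a difference of 0.164. Log2 fold changes were above 0 for 8 of 18 sterol genes and for 3 of 17 fatty acid genes. Relative to the vector mean, the sterol median was -0.068 in CYR61 1 and -0.049 in CYR61 2, against 0.056 in Vector 1 and -0.056 in Vector 2, so the CYR61 libraries lay near the lower vector library. The fatty acid median was -0.198 in CYR61 1 and -0.163 in CYR61 2, below 0.059 in Vector 1 and -0.059 in Vector 2. Leaving out Vector 1 turned the sterol median to 0.062. Sterol calls numbered 1 without CYR61 1 or without Vector 1 and 4 without CYR61 2. No test of the arms against each other was made, since genes are not replicates and 2 against 2 libraries are too few for a permutation test.

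**Figure D3:**
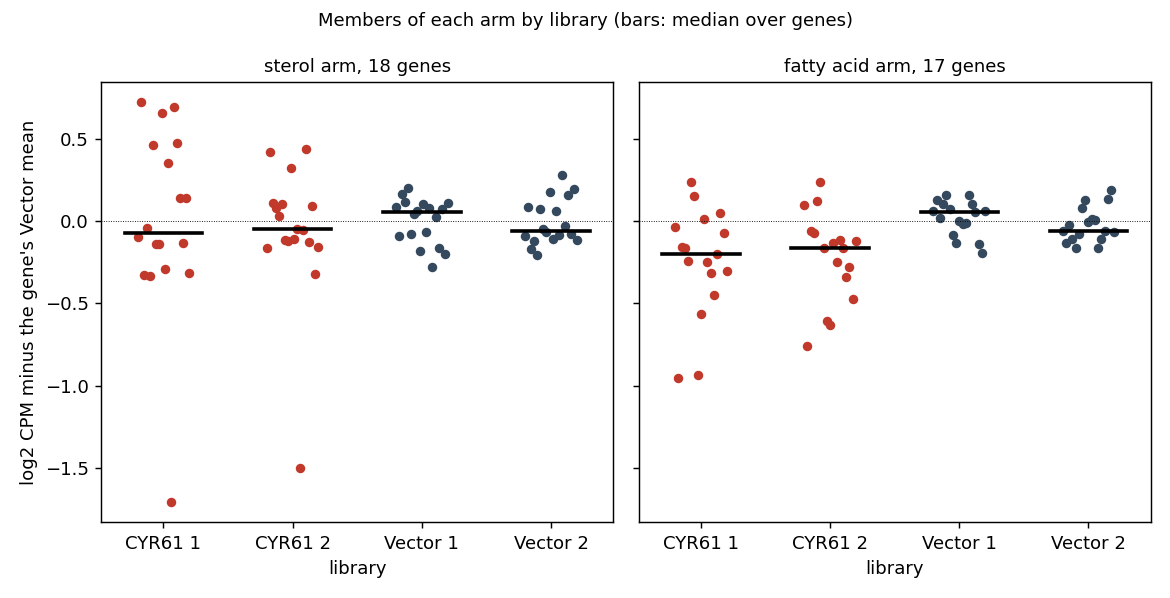
Log2 CPM minus each gene's vector mean (y axis) for the genes of the sterol arm (left) and the fatty acid arm (right) in each library, with bars at the median over genes; vector points mirror each other by construction. The CYR61 medians of the fatty acid arm are -0.198 and -0.163, and TM7SF2 is the point far below the others in the sterol arm.

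In summed level, the sterol arm took 1556 and 1546 CPM in CYR61 libraries and 1633 and 1521 CPM in vector libraries, overlapping. The fatty acid arm took 4205 and 4691 CPM in CYR61 libraries and 5289 and 4790 CPM in vector libraries, apart by a narrow margin. FASN, SCD and ACLY made up most of this sum. SCD had a mean of 748 CPM in CYR61 libraries and 1130 CPM in vector libraries, while FASN and ACLY overlapped between groups. Per kilobase of exon (GENCODE release 29), the order of levels was led by FASN in CYR61 cells and by SCD in vector cells. FASN stood at 197 CPM per kilobase in CYR61 cells and 205 in vector cells, and SCD at 140 in CYR61 cells and 211 in vector cells. ACLY followed at 121 in CYR61 cells and 118 in vector cells. On the same scale SREBF1 stood at 50 in CYR61 cells and 50.9 in vector cells, and SREBF2 at 37.5 in CYR61 cells and 50.3 in vector cells. ELOVL6, ABCA1 and TM7SF2 were the lowest of the 44 in vector cells, TM7SF2 at 0.412 in CYR61 cells and 1.25 in vector cells.

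Base composition moved with the differences between cultures of one group. Over the 44 genes, Spearman's rho between GC content of the longest transcript and the log2 ratio of CYR61 1 over CYR61 2 was -0.84, and for Vector 1 over Vector 2 it was 0.90. For CYR61 over vector it was -0.04. Over all 10378 genes of at least 5 CPM, rho was -0.78 for CYR61 1 over CYR61 2 and 0.73 for Vector 1 over Vector 2. The trends within groups were thus not particular to the 44 genes. For CYR61 over vector, rho over the 10378 genes was -0.17. These correlations are descriptions across genes that share libraries. Members of lower GC content such as HMGCS1 (40.2% GC), IDI1 (41.1%), MSMO1 (38.1%) and SQLE (46.5%) were higher in CYR61 1 than in CYR61 2. GC-rich members such as FASN (65.3%) were lower there. ELOVL6 (41.2%) was an exception, with a log2 ratio of -0.33 for CYR61 1 over CYR61 2. The part of GC content in the tests above was not tested beyond the setting that follows.

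**Figure D4:**
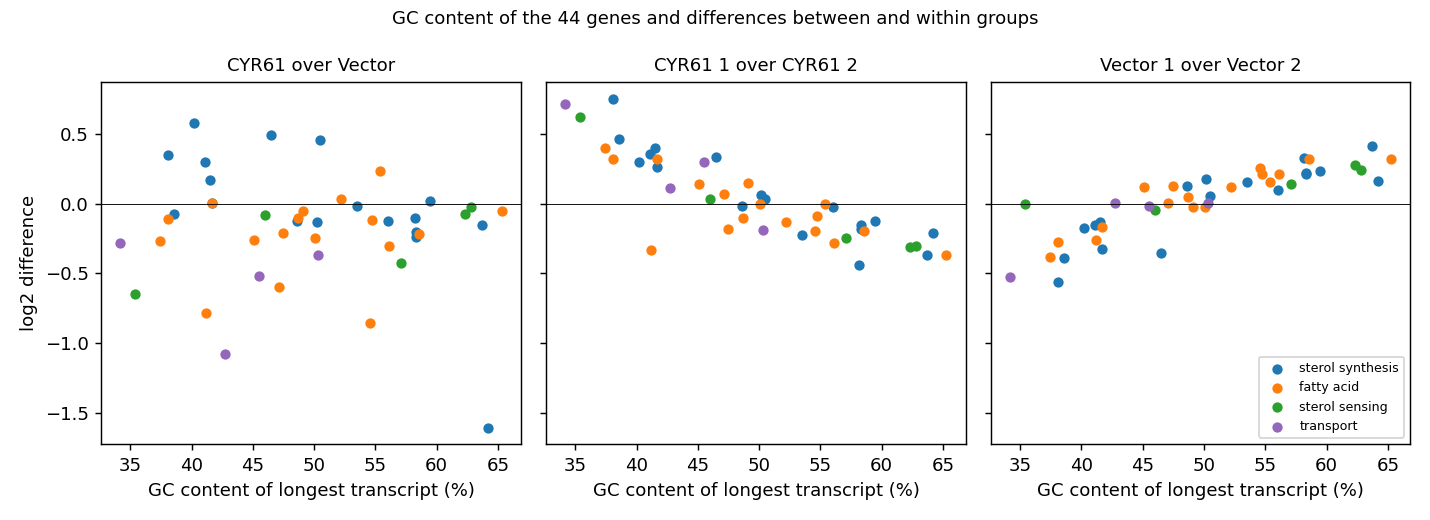
GC content of each gene's longest transcript (x axis, percent) against log2 differences (y axis) for CYR61 over Vector, CYR61 1 over CYR61 2 and Vector 1 over Vector 2, coloured by role. The within-group panels slope in opposite directions (rho -0.84 and 0.90), and for CYR61 over Vector rho is -0.04.

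With the GC trend of each library removed, 17 of 44 members were called (38.6%), 5 higher and 12 lower, while 27.9% of all tested genes were called, 14.8% higher and 13.2% lower. In the sterol arm 5 of 18 genes were called (27.8%), near the share of all tested genes. HMGCS1, SQLE (edgeR adjusted p = 0.0128), NSDHL (0.00164) and IDI1 (0.046) were higher in CYR61 cells and TM7SF2 lower. In the fatty acid arm 7 of 17 genes were called (41.2%). ELOVL1 was higher, and ACSS2, SCD, ELOVL6, FADS1, FADS3 and ACSL4 were lower. Under this setting SREBF2 (log2 fold change -0.35, edgeR adjusted p = 0.00249), INSIG2 (-0.73, edgeR adjusted p = 0.0082), NPC1, ABCA1 and VLDLR were lower as well. The arm medians were then -0.026 for sterol and -0.161 for fatty acid genes. FASN, SREBF1, SCAP, EBP, HSD17B7 and ELOVL5 had the opposite sign to the unadjusted fit and remained uncalled. With a block by replicate number added, 11 of the 44 members were called (25%), and the calls lost are given below.

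Other lipid genes, in 5 lists grouped by role, held 1 called gene that was higher and 3 that were lower, of 92 tested. Their share of 4.35% was below the 6.39% called over all tested genes and is not read as a result about the lists. ABCG1, an exporter of cholesterol and like ABCA1 a target of the oxysterol receptors, had 9.02 and 10.9 CPM in CYR61 libraries, against 41.7 and 35.7 CPM in vector libraries (log2 fold change -1.96, SE 0.17, edgeR adjusted p = 0.000196). It was the single called gene of 16 tested in other sterol handling. MLXIPL, encoding the carbohydrate-responsive factor ChREBP that drives lipogenic genes, had 3.77 and 4.76 CPM in CYR61 libraries, against 13.6 and 14.8 CPM in vector libraries (log2 fold change -1.75, SE 0.20, edgeR adjusted p = 0.00104), 1 of 15 tested in other fatty acid synthesis. DGAT2, which completes triglycerides, had 7.26 and 7.64 CPM in CYR61 libraries, against 13.4 and 13.1 CPM in vector libraries (log2 fold change -0.84, SE 0.17, edgeR adjusted p = 0.0207), 1 of 25 tested glycerolipid and lipid droplet genes. Its call was lost without Vector 1 (edgeR adjusted p = 0.0613). DOLK, the dolichol kinase of a mevalonate branch, had 34.8 and 33.1 CPM in CYR61 libraries, against 23.7 and 22.8 CPM in vector libraries (log2 fold change 0.55, edgeR adjusted p = 0.0482), 1 of 13 isoprenoid branch genes. It was not called without CYR61 1 (0.137), Vector 1 (0.213) or Vector 2 (0.234), nor with library size alone (0.0645) or a filter of 5 CPM in 2 libraries (0.0528).

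Of 23 fatty acid oxidation genes, 0 were called by edgeR, against 6.39% of all tested genes, a count too small to set the list apart, with a median log2 fold change of -0.09. CPT1B, a carnitine palmitoyltransferase gene and the 1 gene of the list below 0.05 before adjustment, had 3.54 and 3.82 CPM in CYR61 libraries and 6.37 and 4.80 CPM in vector libraries (log2 fold change -0.60, edgeR adjusted p = 0.167). Medians of the other lists were 0.20 for isoprenoid branches, -0.10 for other sterol handling, -0.02 for other fatty acid synthesis and 0.04 for glycerolipid genes.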

How the data were processed

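RNA of 4 HLE libraries was measured by sequencing. The submitters' processing notes name hg38 as build, and list TopHat2 (2.1.1) with Cufflinks (2.2.1), then Cuffdiff (1.3.0). The authors deposited estimated counts per Ensembl gene, 11.2% to 12% of them not whole. Which program and annotation gave them, and with which strand setting, no source used here says. Estimated counts were rounded, filtered with edgeR's filterByExpr, scaled by TMM and tested with the quasi-likelihood F test of edgeR 4.0.16 under R 4.3.3 (functions glmQLFit, glmQLFTest), with group as the sole term and p-values adjusted over 12698 genes by the Benjamini-Hochberg method. Log2 fold changes are CYR61 minus vector, and the SE is the absolute log2 fold change over the square root of F. Symbols were found for 20228 of 20286 identifiers, and positions, exon lengths and GC content for 20212, in GENCODE release 29 (GRCh38). The GC trend was a natural spline with 5 degrees of freedom per library over genes of at least 5 CPM, used as an offset. DESeq2 1.42.0 and limma-voom (3.58.1) were alternatives. Scripts were tested on simulated counts.

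The members and lists were chosen with earlier results of these data known. Values per library are given for called members, for the sensing genes and HMGCS1, SQLE, FASN and SCD, and for the gene of smallest p in a role or list with no call (up to 4 called genes per other list). Members named beyond these, and LBR, were chosen after their values were seen. Exon overlaps were searched on both strands for the 44 members only. Other alternatives were RLE size factors, library size alone, no filter, 5 CPM in 2 libraries, the replicate block and leaving out each library. The tests take in variation between the cultures of a group as well as counting error, on counts without molecular identifiers.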

Additional observations from a re-analysis of the deposited data

How the results depend on the processing

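Of 634 log2 fold changes of single genes recomputed under the alternatives, 547 kept direction and side of the threshold, 27 became called, 13 lost the call and 47 changed sign, all 47 for genes that were not called. The calls of VLDLR and ACSS2 held under all 13 alternatives, and that of TM7SF2 under the 12 that tested it, since the filter of 5 CPM removes it. HMGCS1 lost its call under 4 alternatives and SCD under 1. The cause of each change below was not tested, except where fewer genes or samples enter by construction.

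Called genes over the transcriptome numbered 811, and called genes were 2 in the sterol arm, 2 in the fatty acid arm and 4 in the other lipid lists. Without a filter these were 1677 over the transcriptome, 4 sterol and 10 other lipid genes. DESeq2 called 7 other lipid genes. Library size alone and the 5 CPM filter each left 1 sterol gene, and under that filter the arm medians differed by 0.146. Removal of the GC trend gave 3549 calls (1874 higher and 1675 lower), 5 sterol, 7 fatty acid and 23 other lipid genes, with arm medians 0.135 apart. Across the rounds leaving out 1 library, calls ran from 481 (without Vector 1) to 1331 (without CYR61 2), sterol calls from 1 to 4, other lipid calls from 2 to 7, the sterol median from -0.087 to 0.062, the fatty acid median from -0.212 to -0.149 and their difference from 0.101 to 0.211.

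The numbers of the replicates do not pair the libraries in the labels, and deviations of same-numbered libraries correlated at -0.71 over 10378 genes. With the replicate block there were 391 calls (53 higher and 338 lower), 1 sterol, 1 fatty acid and 2 other lipid genes. Under the block the edgeR adjusted p was 0.164 for HMGCS1, 0.0987 for SCD, 0.0787 for DGAT2 and 0.317 for DOLK. It was 0.385 for SREBF2, 0.218 for INSIG2, 0.368 for SQLE and 0.427 for NSDHL, which were not called without the block either. With the block and the GC trend removed there were 2049 calls, 4 sterol, 3 fatty acid and 12 other lipid genes, and the arm medians were 0.136 apart. Compared with removal of the GC trend alone, ELOVL6 (edgeR adjusted p = 0.071), FADS1 (0.113), FADS3 (0.117) and ACSL4 (0.0513) lost their calls. IDI1 (0.13) and ABCA1 (0.0667) lost theirs as well. A block with crossed numbers, added after the data were seen, gave 5624 calls, 12 sterol, 9 fatty acid and 37 other lipid genes.

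Sign changes were as follows. ELOVL5 was at -0.001 with limma-voom, -0.009 with library size alone, -0.013 with the 5 CPM filter, -0.004 with the replicate block, -0.036 with the GC trend removed and -0.039 with both. HSD17B7 was at -0.006, -0.009, -0.029 and -0.025 under library size alone, the 5 CPM filter, the GC trend removed and GC with block. With the GC trend removed, and with the block added, EBP was at 0.032 and 0.031, SREBF1 at 0.080 and 0.079, SCAP at 0.030 and 0.031, and FASN at 0.059 in both. Leaving out 1 library, log2 fold changes ran from -0.333 to 0.117 for MVK, -0.088 to 0.138 for PMVK, -0.346 to 0.064 for MVD, -0.033 to 0.354 for CYP51A1, -0.072 to 0.670 for MSMO1, -0.145 to 0.185 for HSD17B7, -0.132 to 0.102 for EBP, -0.323 to 0.140 for SC5D, -0.183 to 0.133 for SREBF1, -0.232 to 0.087 for SCAP, -0.683 to 0.022 for STARD4, -0.032 to 0.111 for ACLY, -0.250 to 0.131 for FASN, -0.154 to 0.153 for ELOVL5, -0.117 to 0.017 for SCD5 and -0.270 to 0.043 for ACSL3.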
